A study of Arabidopsis thaliana with 10 samples.

Results

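A group of 135 probe sets, of 22746 on the Affymetrix ATH1 array, was higher after 2 days without boron and after 2 days without calcium in whole Arabidopsis thaliana plants. The members were chosen by size of change. Signals of the 6 arrays of 2 days were taken as log2(signal + 16), each array was shifted to the same median, and a member had to lie at least 1 log2 unit (2-fold) above the control mean in both deficiencies, with a mean of at least 7 in 1 of the 3 groups. The thresholds were met by 138 probe sets, of which 3, those of EXPA4, XTH19 and scpl35, were left out by name; AT1G73600, also on that list of exceptions, did not meet them, since its calcium difference was 0.94. A single gene is listed for 59 members and several genes for 11, and 65 have no name in the sources used here.

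Growth was on perlite, in a solution holding 3 mM calcium and 25 µM boron, and each group has 2 arrays, labelled as biological replicates, of RNA from whole plants. Control_2d plants, 19 days old, and Control_4d plants, 21 days old, stayed on the complete solution. Boron deficiency_2d and Boron deficiency_4d plants received a solution free of boron for 2 or 4 days, and Calcium deficiency_2d plants one free of calcium for 2 days; the nitrate of the calcium-free solution was balanced with magnesium and potassium salts, and the groups were the same age as the controls of their day. The labels disagree on the plants' age when the deficiency began, so the days without boron or calcium are given as the group names state them. The 10 arrays were quantile normalized together here, and signals below are on that scale. A difference is between group means of log2(signal + 16), so it understates the change of dim probe sets. For arrays, their number limits the precision, and P-values measure the spread between 2 arrays per group.

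Boron links pectin chains in the primary wall through borate bridges, and calcium links other stretches of pectin by binding between their acidic groups, so both nutrients hold the wall together. Calcium is also a second messenger in defence and wounding. Many secreted proteins act in the wall: class III peroxidases, which cross-link or loosen it, pectate lyases, which cut pectin, lipid transfer proteins, which carry lipids outside the cell, and small defence proteins.

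Both 2-day differences use the same Control_2d arrays and chose the members, so the values at 2 days are given as a description, without a test. The median difference was 1.46 under boron deficiency, with a range of 1.04 to 3.57, and 1.48 under calcium deficiency, with a range of 1.01 to 4.36. Both boron-deficient arrays lay above both control arrays in 131 of the 135 members (21.5% of all probe sets), and both calcium-deficient arrays did so in 135 (27% of all). All 4 deficient arrays were above both controls in 131 (13.8% of all). AT4G33720 and 3 unnamed members were the exceptions under boron deficiency. Just inside the threshold, with a smaller difference close to 1.01, lay AT5G20080, AT1G06000 and AT5G03350. Just outside lay AT1G29980 at 0.998, AT5G22580 at 0.997 and AT5G55180 at 0.989.

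**Figure D1:**
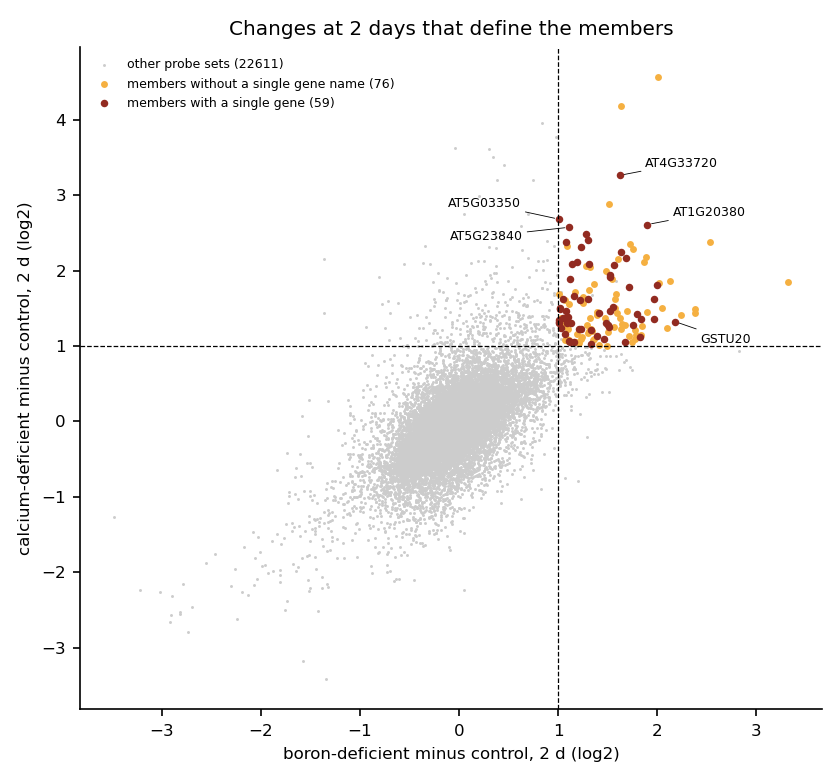
Difference from the 2-day control under boron deficiency (horizontal, log2) and calcium deficiency (vertical, log2) for every probe set, on the scale used to choose the members; dashed lines mark the threshold of 1. The 135 members fill the upper right corner by construction, and AT4G33720 and AT1G20380 reach further up than GSTU20, which reaches further right.

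The 2 boron-deficient arrays of 2 days did not contribute equally. Replicate 2 was higher than replicate 1 in 110 of the 135 members (48.7% of all probe sets) and at least 1 log2 unit higher in 34 (1.07% of all). With replicate 2 left out the thresholds selected 77 probe sets, 75 of them members, and 34 of the 59 single-gene members were lost. With replicate 1 left out they selected 212, which include 131 of the members. Leaving out control replicate 1 gave 210 probe sets, 119 of them members. Without control replicate 2 there were 123, and only 97 of them were members. In all, 51 members met the thresholds with each of the 6 arrays left out in turn. The 16 of them with a single gene were AT1G20380, AT5G54970, AT5G42860, AT4G10270, AT5G07030, AT3G18280, AT4G11190, ZIP9, AT3G06035, AT1G67750, AT2G28790, GSTU20, ATLP-1, AT3G61820, AT3G02120 and HTB2.

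**Figure D2:**
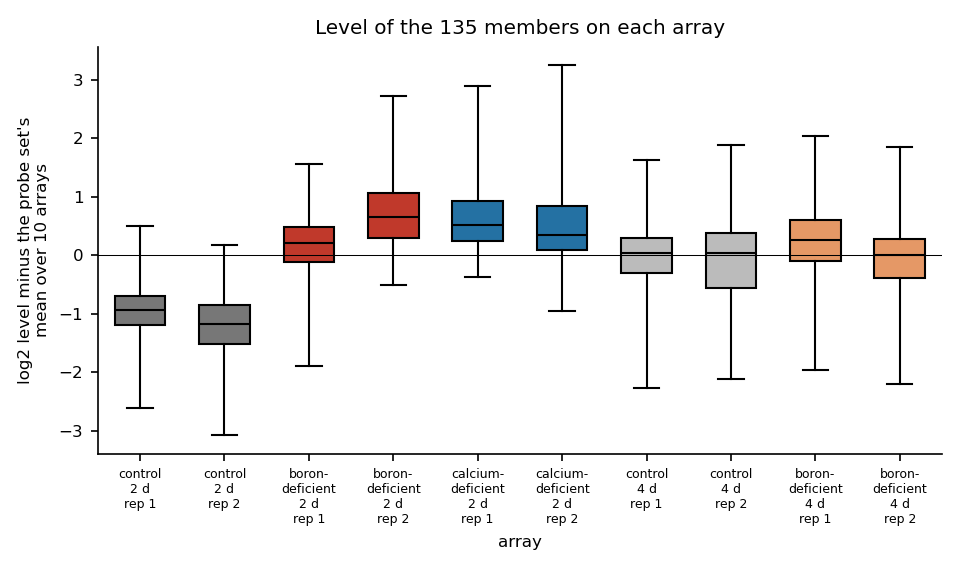
Level of the 135 members on each of the 10 arrays, as log2(signal + 16) minus each probe set's mean over the 10 arrays; boxes span the quartiles, the line is the median and whiskers reach the lowest and highest member. The medians are -0.94 and -1.18 on the 2-day control arrays, 0.21 and 0.66 on the boron-deficient arrays of 2 days, and 0.05 and 0.04 on the 4-day control arrays.

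Of the 59 single genes 44 have a known role or family and were put into groups by it, after their values were seen. The wall and apoplast enzymes were 10: 4 class III peroxidases, a pectate lyase, a glycosyl hydrolase, 2 aspartyl proteases, a berberine bridge enzyme-like protein and a plantacyanin. Their median difference was 1.48 under boron deficiency and 1.46 under calcium deficiency, and 4 of the 10 were larger under calcium deficiency.

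AT1G67750 belongs to the pectate lyase family. Its signals were 145 and 109 on the 2-day control arrays, 492 and 523 under boron deficiency and 414 and 349 under calcium deficiency. Both pairs stood well apart from the controls, and the boron pair lay above the calcium pair. The glycosyl hydrolase gene GH9B13 had control signals of 166 and 203, boron-deficient signals of 725 and 581 and calcium-deficient signals of 448 and 371. Again no groups overlapped, and the boron pair was the highest.

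AT5G07030, which encodes an aspartyl protease, measured 154 and 121 in the controls, 576 and 653 under boron deficiency and 553 and 396 under calcium deficiency. The other aspartyl protease, AT3G61820, measured 346 and 266, then 741 and 779, then 875 and 630.3. For both genes the deficient arrays were all above the controls, and AT5G07030 had the larger boron difference, 2.04 against 1.28. ARPN, a plantacyanin or small copper protein of the apoplast, had close replicates: 274 and 241 in the controls, 522 and 649.7 without boron and 669 and 659 without calcium.

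The peroxidases formed a less even set. AT4G26010, which encodes PRX44, a peroxidase of root hairs, had signals of 57.8 and 123 in the controls, 227 and 637 under boron deficiency and 276 and 259 under calcium deficiency. Its boron-deficient replicate 2 was far above replicate 1. The gene still met the thresholds with boron replicate 2 left out, but not with control replicate 1 left out. AT1G30870 also had a wide boron pair, 153 and 349, against 54.9 and 69.3 in the controls and 214 and 175 under calcium deficiency. It failed the thresholds with boron replicate 2 left out. AT3G01190 (difference of 1.1 without boron and 1.66 without calcium) and AT3G21770 (1.26 and 1.63) differed more from the controls without calcium.

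Of 8 root hair markers 3 were measured, the PRX44 gene among them. Their summed signal, which this chosen member makes up in part, was 244 to 274 in the 2-day controls, 425 to 996 under boron deficiency and 450 to 494 under calcium deficiency. EXPA18 read 107 and 72.4 in the 2-day controls, 112 and 215 without boron and 123 and 108 without calcium, and EXPA7 read 79.9 and 78.4, 86.2 and 144, and 94.9 and 83.0. Neither passed the limma test in either deficiency, with adjusted p = 0.108 and 0.370 for EXPA18 and 0.187 and 0.633 for EXPA7. PYK10, a beta-glucosidase of roots and the 1 measured root marker of 7, had signals of 1428 and 1739 in the 2-day controls, 2310 and 2976 without boron and 3919 and 2898 without calcium, and passed the limma test in both (Benjamini-Hochberg adjusted p = 0.0375 and 0.00379). Of 6 leaf markers 3 were measured, RCA, LHCB4.1 and PRK. Their summed signal was 32556 to 36362 in the 2-day controls, 32436 to 34091 without boron and 26239 to 28987 without calcium. Without calcium the differences were -0.49 for RCA and -0.69 for PRK, but -0.01 for LHCB4.1. No measured marker was at 0, and none of 4 markers of dividing cells was measured by name. In RNA of whole plants, fewer cells of a type and less RNA per cell cannot be told apart, and the part of root tissue in the members' differences was not tested.

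Lipid transfer and lipid-binding proteins made up 8 members, among them 6 lipid transfer proteins. In 7 of the 8 the difference was larger under calcium deficiency, with a median of 2.11 against 1.23 under boron deficiency. Both calcium-deficient arrays lay above both boron-deficient arrays in 6 of the 8, against 32 of the 135 members and 25% of all probe sets. AT3G18280, a lipid transfer protein gene, measured 635 and 355 in the controls, 1135 and 1800.4 under boron deficiency and 2088 and 2081 under calcium deficiency. Its calcium pair was nearly identical and lay above each of the other 4 arrays of 2 days.

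AT3G53980, of the same family, was at 235 and 175, then at 386 and 767, then at 1212 and 1131. AT5G23840, whose product belongs to a lipid recognition family, was at 42.5 and 74.0, at 89.3 and 272 and at 499.8 and 456. Both genes thus showed 3 ordered groups, controls lowest and calcium-deficient plants highest, with a wide gap between the boron-deficient replicates. AT1G62500 and AT4G12500 had differences near 1.1 to 1.2 in both deficiencies. AT4G12500 was the single lipid transfer member with a boron difference, 1.15, above its calcium difference, 1.11, and its boron-deficient arrays read 986 and 2985.

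Defence-type secreted proteins and lectins gave 10 members: 3 thaumatin-like proteins, 2 defensin-like proteins, 2 dirigent proteins, 2 lectins and 1 protein of the CAP family, which includes the pathogenesis-related protein PR-1. Their median difference was 2.02 under calcium deficiency and 1.39 under boron deficiency. In 5 of the 10 both calcium-deficient arrays exceeded both boron-deficient arrays, against 32 of the 135 members and 25% of all probe sets. Replicate 2 exceeded replicate 1 under boron deficiency in all 10, against 110 of the 135 members and 48.7% of all probe sets.

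AT4G33720, the CAP gene, had the largest calcium difference of any single-gene member, 3.29. It measured 248 and 145 in the 2-day controls, 247 and 1585 under boron deficiency and 1766 and 2269 under calcium deficiency. The first boron-deficient array was level with the higher control, and the second was far above both, so the boron difference of 1.66 rested largely on the second array. At 4 days it was dim, with 33.8 and 39.3 in the controls and 46.1 and 36.7 without boron.

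AT5G03350, a legume lectin gene, was bright throughout, with 1304 and 976 in the 2-day controls, 1766 and 3082 without boron and 7789.6 and 7026 without calcium. The calcium pair was far above the rest, and the gene had the smallest boron difference of the members, 1.04. The jacalin lectin gene JAL23 had the same order, 136 and 131, then 254 and 483, then 801 and 720.2. Dirigent proteins steer the coupling of phenolic radicals, and the dirigent gene AT1G55210 was at 709 and 260.0, at 814 and 1452 and at 2665 and 2318. Its control arrays differed more from each other than the deficient pairs did in fold terms, and the calcium pair again was highest.

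The thaumatin-like proteins did not share this order. AT2G28790 measured 244 and 215 in the controls, 629.6 and 694 without boron and 591 and 726 without calcium, and its deficient pairs overlapped. ATLP-1 had boron-deficient signals of 357 and 459 above calcium-deficient signals of 304 and 259, against 116 and 83.1 in the controls. ATLP-1 and AT1G73620 had a larger difference without boron than without calcium, whereas for AT2G28790 the 2 differences were nearly equal, 1.47 and 1.45, and changed order on the scale used to choose the members, 1.41 and 1.43.

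Among the conjugating enzymes, which attach glutathione, sugars or acyl groups to small molecules, the 2 glutathione transferases ran opposite ways. GSTU20, which also takes part in glucosinolate synthesis, was at 416 and 301 in the controls, 2038 and 1347 under boron deficiency and 1126 and 751 under calcium deficiency. GSTU26 was at 72.7 and 89.6, at 159.6 and 297 and at 507 and 374. The boron pair was highest for GSTU20 and the calcium pair for GSTU26, without overlap in either gene. GT72B1, a glycosyltransferase that conjugates phenolic compounds, and AT1G06000, a flavonol rhamnosyltransferase gene, had boron differences of 1.06 and 1.11 and calcium differences of 1.51 and 1.44. The acyltransferase gene AT4G15390 had 342 and 279.9 in the controls, 524 and 1663 without boron and 1388 and 1079.9 without calcium, another case of a wide boron pair.

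Metal handling was represented by ZIP9, a zinc transporter of the ZIP family, and AT1G47400, which encodes a peptide induced by iron shortage. ZIP9 measured 84.0 and 57.1 in the controls, 199 and 352 without boron and 309 and 208 without calcium. Its deficient pairs overlapped. AT1G47400 was at 58.4 and 26.7, at 198 and 288 and at 161 and 134, and its boron pair lay above its calcium pair. The beta-tubulin gene TUB1 (122 and 70.0, then 389 and 431, then 252 and 226) and the histone H2B gene HTB2 (219 and 180.3, then 642 and 504, then 479 and 452) likewise had the boron pair on top.

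The members tied to low oxygen and stress were 3. AT4G10270, a wound-responsive family gene, was at 377 and 163 in the controls, at 1115 and 602 under boron deficiency and at 1139.6 and 1374 under calcium deficiency. AT3G10040 encodes HRA1, a trihelix factor that restrains the low-oxygen response, and was at 193 and 82.0, at 469 and 204 and at 341 and 421. In both genes replicate 1 was above replicate 2 in the controls and in the boron-deficient plants. AT4G30650, of a low temperature and salt responsive family, had the same order within both groups, 782 and 331 and then 1662 and 1303. Boron replicate 2 was thus the lower one in all 3 members of the group and in 25 of all 135 members, GSTU20 and HTB2 among them, and control replicate 2 was the lower one in 93 of the 135.

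Carbon metabolism was represented by APL3, a large subunit of the enzyme that makes ADP-glucose for starch, and AT1G12000, a phosphofructokinase gene of the pyrophosphate-using type. APL3 was at 106 and 75, at 206 and 248 and at 358 and 249, and AT1G12000 at 324 and 241, at 562 and 666 and at 816 and 709. In both, 3 groups were ordered without overlap, with the calcium pair highest. For APL3 the boron and calcium pairs barely separated, at 248 and 249. AT1G20380, of the prolyl oligopeptidase family, had the largest smaller difference of the single-gene members, 1.94 without boron and 2.63 without calcium. It was at 397 and 148, at 616 and 1557 and at 1961 and 1297, so its deficient pairs overlapped while its controls were lower.

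**Figure D3:**
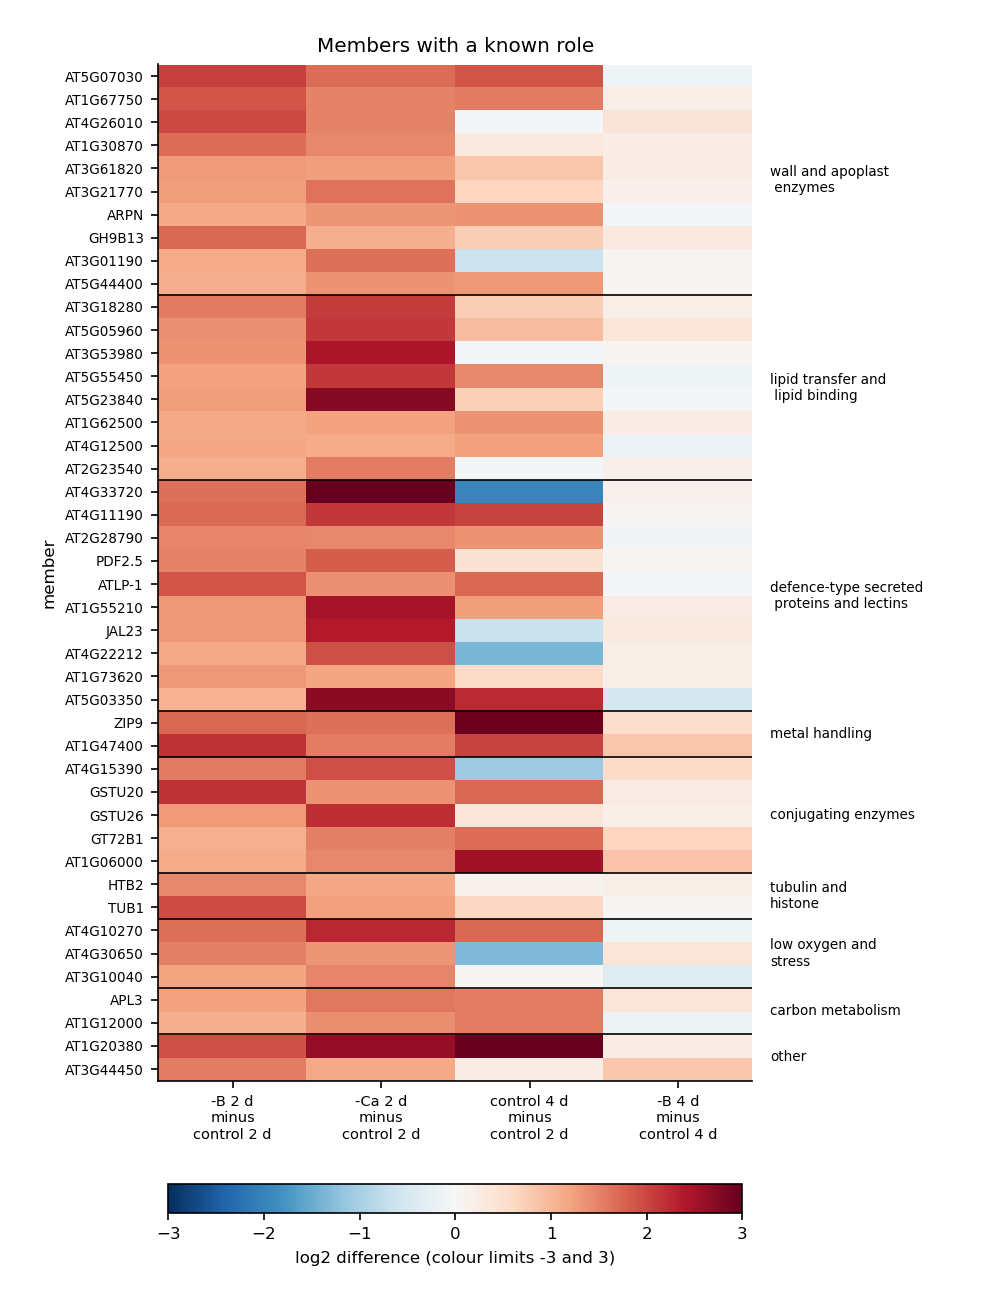
Differences (log2) of the 44 members with a known role, in 4 columns: boron and calcium deficiency at 2 days against the 2-day controls, the 4-day against the 2-day controls, and boron deficiency against control at 4 days. The first 2 columns are positive by construction; lipid-related members and several defence members are darker under calcium deficiency, the third column ranges from -1.97 for AT4G33720 to 3.32 for AT1G20380, and the last column is pale throughout.

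Over all 135 members neither deficiency gave the larger change as a rule: the calcium difference was larger in 68 and the boron difference in 67. This balance moved with single arrays, from 48 members larger under calcium deficiency without boron replicate 1 to 92 without boron replicate 2. Both boron-deficient arrays exceeded both calcium-deficient arrays in 27 members (27.4% of all probe sets). Some of the unnamed members had larger differences than any named one. One unnamed probe set, singled out after its values were seen, read 1846 and 362 in the controls, 1290.3 and 8481 without boron and 17872 and 16662 without calcium. Its calcium difference of 4.36 was the largest of the members, and its boron-deficient replicates lay on either side of the first control. A further 5 probe sets list the same 5 genes, so they share targets and are not independent; their differences ran from 1.42 to 1.73 without boron and from 1.23 to 1.53 without calcium. Of the members 9 belong to probe set types that can share sequence with related genes, so their signals may mix copies.

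**Figure D4:**
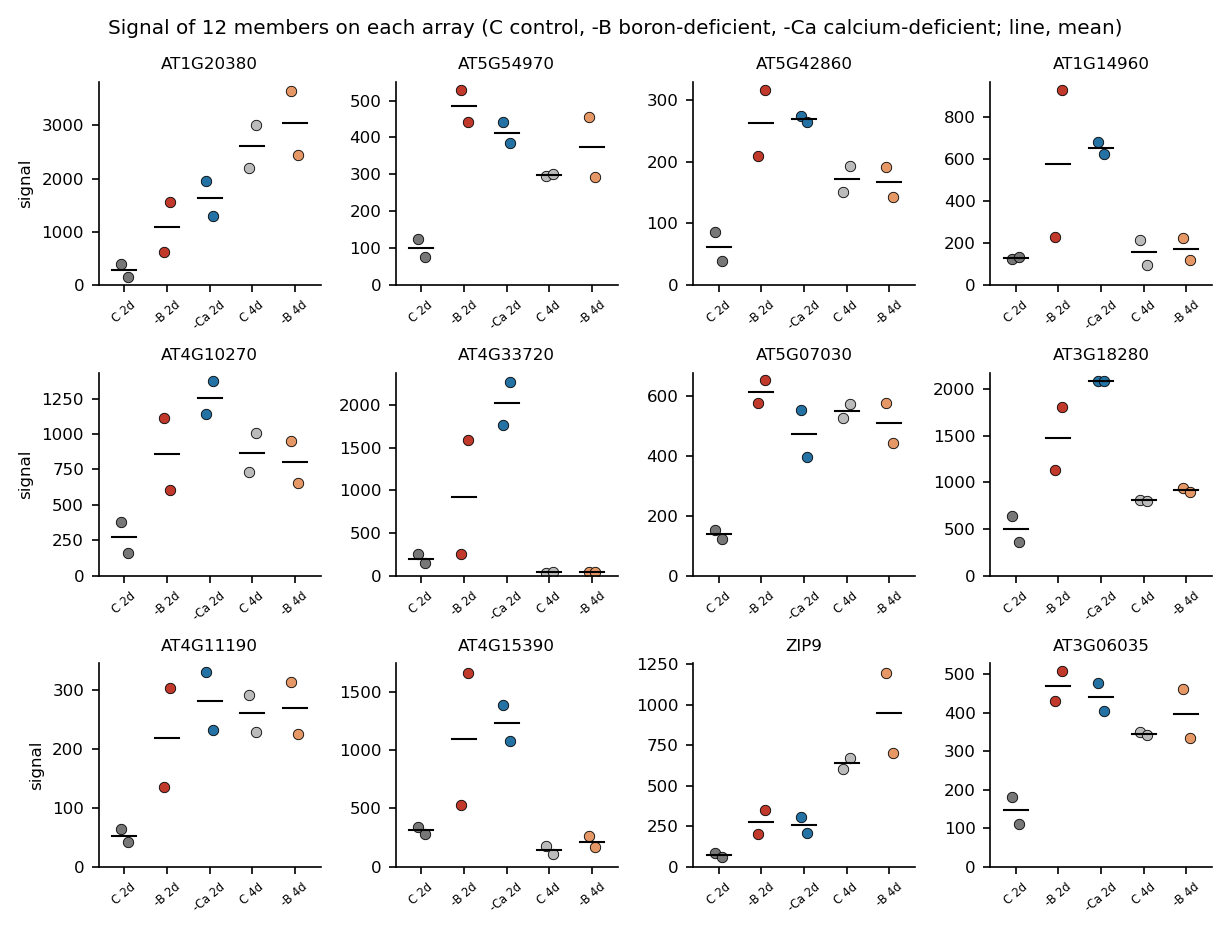
Quantile-normalized signal on each array for the 12 single-gene members with the largest value of the smaller of their 2 differences at 2 days; points are arrays and lines group means. The 2-day controls are lowest or near lowest in most panels, while AT4G33720 and AT4G15390 are lower still at 4 days and AT1G20380 and ZIP9 are highest at 4 days.

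Related genes that were not members were counted from lists of wall, growth, stress and nutrient genes, of which 87 of 432 loci had a probe set of their own name and 9 of these were members. Genes that passed both thresholds are by definition not among these relatives. The counts are of listed genes only, not of whole families. The class III peroxidase list, for example, holds 1 member, whereas 4 of the members are class III peroxidases. Of 12 other measured genes on that list 11 were tested, of which 1 rose and 0 fell without boron, and 5 rose and 1 fell without calcium (limma, adjusted p at most 0.05). Over all probe sets tested 8.52% were called without boron, 5.8% higher and 2.72% lower. Without calcium 21.7% were called, 11.8% higher and 9.93% lower. Genes given with values here were among the 2 of their list with the highest smaller difference in the same 2-day arrays. Their adjusted p-values are thus not independent of that choice. Of the 2 peroxidases so picked, AT4G30170 had the larger calcium difference, 1.62 (limma, adjusted p = 0.0418), and AT5G17820 had 1.27 (limma, adjusted p = 0.0311). Of 9 other pectin-modifying genes 3 rose without boron, AT4G24780 by 1.28 (adjusted p = 0.00501), and 1 rose without calcium. Among 6 other tubulins 3 rose and 1 fell without boron, with TUB7 up by 0.91 (adjusted p = 0.0178), while 0 rose and 1 fell without calcium. Of 6 other glutathione transferases 5 were tested. Without boron 0 rose and 0 fell, and without calcium 3 rose and 1 fell, with GSTU27 up by 0.998 (limma, adjusted p = 0.00375). The 3 other glucosinolate genes rose without boron, BCAT4 by 1.64 (adjusted p = 0.00392), and 1 of them rose without calcium. All 4 measured genes of sugar starvation and darkness fell in both deficiencies, ATL8 by 1.58 and 1.39 on the log2 scale (adjusted p = 0.00900 and 0.00639).

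The 4-day arrays were not used to choose the members. Boron deficiency at 4 days was therefore tested against the control of the same day. The limma error, however, was pooled over all groups, including the 2-day arrays that chose the members. The members' median log2 gap between replicates was 0.61 in Boron deficiency_2d and 0.38 in Control_2d (0.17 and 0.23 over all probe sets). In Boron deficiency_4d and Control_4d it was 0.36 and 0.27 (0.12 and 0.11 over all). Fitted to the 4-day arrays alone, limma called 0 members. In the main fit none of the 135 members passed the limma test at an adjusted p of 0.05, and 1 of 17059 probe sets did (0.00586%). At an unadjusted p under 0.05 there were 8 members, all higher without boron (4.25% of all probe sets tested in either direction, 2.83% higher). The members' median difference was 0.14, against -0.01 for all probe sets, and it ran from -0.59 to 1.48. The mean was higher without boron in 97 members (47.9% of all probe sets) and lower in 38. Both boron-deficient arrays lay above both controls in 23 members (19.3% of all) and below in 5 (22.3% of all). The share of higher means rested on 1 array: replicate 1 of the 4-day boron-deficient plants was above replicate 2 in 118 members, against 50.3% of all probe sets, and without it 57 members were higher and the median was -0.02.

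**Figure D5:**
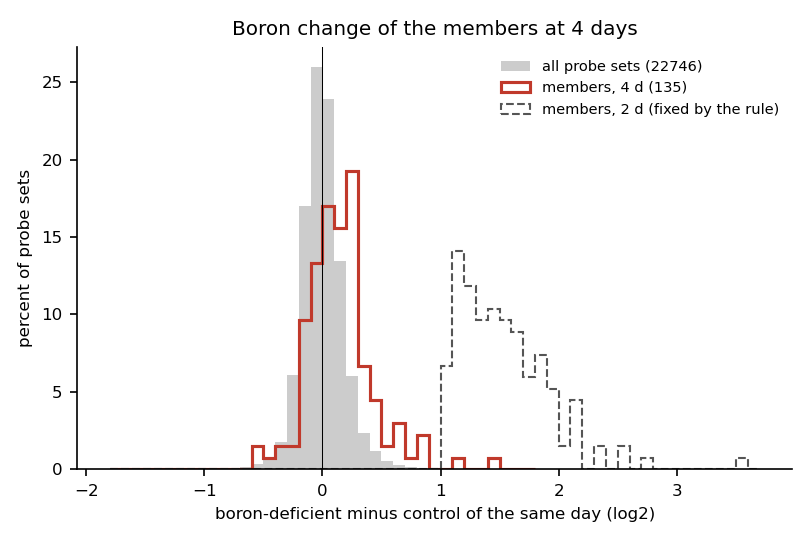
Distribution of the boron difference (log2) at 4 days for all 22746 probe sets (grey, percent of probe sets) and for the 135 members (red), with the members' 2-day boron difference as a dashed line. At 4 days the members centre on 0.14 and reach 1.48, whereas at 2 days their lowest value is 1.04, which the choice of members fixes.

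For 97 of the members the 95% confidence interval of the 4-day difference ended below 1, that is, below a 2-fold rise; the intervals are not adjusted for their number. AT1G62500 is an example, with a difference of 0.21 and an interval of -0.13 to 0.56. For the other members the interval reached 1 or more, as for AT4G33720, at 0.12 with an interval of -1.31 to 1.56. The widths of all these intervals draw on the replicate spread of every group, the 2-day groups included. AT4G33720 read 33.8 and 39.3 in the 4-day controls and 46.1 and 36.7 without boron. Its 2-day boron-deficient pair, 247 and 1585, lay far wider apart, so its interval does not measure the spread of its 4-day arrays alone. The difference between the 2-day and the 4-day boron response was not tested, since the first of them chose the members.

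The largest 4-day difference, 1.48 (SE 0.36, unadjusted p = 0.00246, adjusted p = 0.844), belonged to an unnamed member. It read 284 and 174 in the 4-day controls and 754 and 561 without boron, and the groups did not overlap. Among the single-gene members the largest was that of AT1G06000, the flavonol rhamnosyltransferase gene, at 721 and 697 in the controls and 1490.1 and 1123 without boron, a difference of 0.85 (SE 0.28, limma unadjusted p = 0.0120, adjusted p = 0.9996). AT1G47400 followed at 0.83 with 183 and 250.3 against 601 and 254, so its pairs barely separated. AT3G44450, which encodes BIC2, an inhibitor of cryptochrome blue-light receptors, had 166 and 189 against 362 and 287. GT72B1 had 1268 and 1127 against 1887 and 1873, a close pair on each side (difference 0.65, SE 0.28, limma unadjusted p = 0.0422).

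At the other end AT5G03350 was at 4384 and 6534 in the 4-day controls and 3602 and 3783 without boron, a difference of -0.53 with an interval of -1.13 to 0.07. AT3G10040, the HRA1 gene, had -0.37 with an interval of -1.28 to 0.54, and AT5G26260, AT4G12500 and AT1G12000 lay between -0.19 and -0.16. The lipid-related group had a median of 0.10 at 4 days, the defence-type group 0.11 and the wall and apoplast group 0.16. In none of the 9 role groups did a member pass the adjusted threshold. The 4-day boron-deficient pair lay above the control pair in both metal-handling genes, for AT1G47400 barely. It did so in 2 of the 5 conjugating enzymes, the glycosyltransferase genes. Over all members this held in 23 of 135, and over all probe sets in 19.3%.

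The controls themselves differed between the days. Control_4d minus Control_2d had a median of 1.11 over the members and -0.02 over all probe sets, and was at least 1 in 77 of the 135 members (5.06% of all probe sets) and at most -1 in 4 (4.01% of all). The 2-day controls helped to choose the members as the low side of both differences, so this is a description without a test. Age, sampling day and the scaling of the arrays go together in it and cannot be told apart: before normalization the 2-day arrays had median signals of 114.883 to 121.212 and the 4-day arrays 231.564 to 243.414. Both 4-day control arrays lay above both 2-day control arrays in 103 members (31.2% of all). The 4-day control mean exceeded the 2-day boron-deficient mean in 36 members (48.4% of all) and both deficient means of 2 days in 26 (38.5% of all). Both 4-day control arrays lay above both 2-day boron-deficient arrays in 23 members (31.9% of all). These 3 counts are smaller shares of the members than of all probe sets, and the choice of members as high in the deficient plants bears on them directly. PYK10, the root marker, was likewise higher in the 4-day controls, at 4248 and 4473; its part in this difference was not tested.

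Members divided by this measure. AT1G20380 was at 2207 and 3013 in the 4-day controls against 397 and 148 at 2 days, a difference of 3.32 and above its deficient signals of 2 days. ZIP9 was at 606 and 669, up from 84.0 and 57.1, and AT1G06000 at 721 and 697 against 153 and 80.0. These genes had their highest signals at 4 days with or without boron. The wall genes AT1G67750 (422 and 379) and AT5G07030 (529 and 573) were close, in the 4-day controls, to their levels in the boron-deficient plants of 2 days.

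Other members had about the same level in the 4-day as in the 2-day controls, or a lower one. AT4G26010 read 110.3 and 59.1 in the 4-day controls, AT3G53980 220.1 and 178 and HTB2 197 and 233, each within about the range of its 2-day controls. The 4 members that were lower in the 4-day controls by at least 1 log2 unit were AT4G33720 at -1.97, the defensin-like gene AT4G22212 at -1.36, AT4G30650 at -1.33 and the acyltransferase gene AT4G15390 at -1.09. In AT4G22212 the signals were 549 and 814 at 2 days and 346 and 179 at 4 days, without overlap. Their mean was highest, of the 4 boron and control groups, in the boron-deficient plants of 2 days, with AT4G15390 at 524 and 1663 and AT4G22212 at 886 and 2492.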

How the data were processed

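Biotin-labelled RNA of 10 ATH1 arrays was measured. The deposited values are signal intensities per probe set on a linear scale; the authors made them with GCOS 1.4, per the submitters' processing notes, and no source used here gives their scaling or genome build. Signals were quantile normalized, log2 transformed after adding 16, and filtered on the mean at the 25th percentile, leaving 17059 of 22746 probe sets, among them all 135 members. The 5 group means were fitted with limma 3.58.1 in R 4.3.3, with an intensity trend, 5 residual degrees of freedom and Benjamini-Hochberg adjustment over the 17059; the steps were checked on simulated data. Tables and figures used Python 3.11.15, pandas 2.3.3 and matplotlib 3.10.9.

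Members and gene lists were chosen with earlier results of these data known, and role groups after values were seen. Named members were the 12 with the highest smaller difference, up to 3 per gene list, the 5 at each end of boron minus calcium and of the 4-day difference, and the 3 nearest the threshold on each side; further members are named by role. The name table lists 14016 probe sets, 13513 with a single gene. The same replicate numbers in 2 groups were not treated as pairs in the main fit. The correlation of deviations was 0.03 between the 4-day groups and ran from -0.25 to 0.23 over all pairs of groups. These values cannot settle whether the replicates were paired.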

Additional observations from a re-analysis of the deposited data

Results flagged for a closer look

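Members AT1G12000 and AT5G03350 are given because both boron-deficient arrays lay above both controls at 2 days and below them at 4 days. The choice of members favoured the 2-day side. Neither 4-day difference passed the limma test after adjustment, so a reversal is not shown. In the phosphofructokinase gene AT1G12000 both boron-deficient arrays were above both controls at 2 days, and both were below at 4 days, where the difference was -0.156 with a 95% interval of -0.53 to 0.22. In the lectin gene AT5G03350 the same held, with a difference of -0.534 at 4 days. Both 4-day boron-deficient arrays were below both controls in 5 members in all (22.3% of all probe sets), the other 3 being unnamed, with differences of -0.588, -0.419 and -0.234. The difference between the days was not tested, since the 2-day values chose the members.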

How the results depend on the processing

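Members called at 4 days numbered 0 under each alternative: another pseudocount, no filter, a median shift, deposited values, the replicate block, array weights, only the 4-day arrays, and each 4-day array left out. Probe sets called over the whole array were 1, and 2 with a median shift, 0 with only the 4-day arrays and 3 with array weights. With the replicate number as a block (replicate block) 0 were called, and the block changed no call among the members. Leaving out 1 array gave 0 to 1 calls, 57 to 115 members higher and medians of -0.0193 to 0.322; without boron-deficient replicate 1 of 4 days the median turned to -0.0193. The chosen probe sets numbered 135, but 69 with a pseudocount of 64, and 77 to 212 with 1 array left out. The day-to-day difference of the controls had a median of 2.04 on the deposited values, which are not on 1 scale. The cause of these shifts was not tested. Of 33 named members 19 changed sign at 4 days in at least 1 of 11 alternatives, and none was called. The count of members with the larger calcium difference without each 2-day deficient array, 48 to 92, was chosen after seeing the data. Promoter motifs were planned and not run. With 2 arrays per group, small 4-day differences are not detectable.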
